A study of Mus musculus with 4 samples.

Results

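The transcription factors Lmx1b, Tlx3, Lbx1, Pax2, Lhx1, Lhx5, Maf, Prdm8, Satb1 and Ebf1 mark neurons of the dorsal horn, the part of the spinal cord that receives input from the skin and other sensory organs. Members were taken as all probes whose gene name on the array is 1 of these 10 symbols, which gave 16 probes for 10 genes among 30222 gene names in all. The animals were male mice of the outbred ICR stock, 5 to 6 weeks old, whose right sciatic nerve had been partially ligated (PSL, partial sciatic nerve ligation) 7 days earlier, and RNA was taken from slices of their lumbar cord (L4 to L5). The study asked which spinal transcripts vary with the time of day when the adrenal glands, the source of glucocorticoids, are present or removed.

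The 4 conditions crossed 2 operations with 2 times of day, ZT10 and ZT22. In addition to the nerve injury, sham+PSL mice were sham-operated and kept their adrenals, and ADX+PSL mice were adrenalectomized and then drank saline. ZT, zeitgeber time, counts hours from lights on, so that ZT10 lies late in the light phase and ZT22 late in the dark phase. All mice had the nerve injury, and uninjured cord was not analysed here. Each condition had 1 one-colour array, so a difference between arrays includes differences between mice and between slices. How many mice gave each RNA, and from which side of the cord, is not given in the sources used here. The study's array methods name spinal slices and no dissection of the dorsal horn, so ventral horn and white matter may be in the RNA.

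In the embryo, a small set of transcription factors decides whether a dorsal horn neuron becomes excitatory, releasing glutamate, or inhibitory, releasing GABA and glycine. Lbx1 is present in the late-born neurons of both kinds, Tlx3 and Lmx1b set the glutamatergic kind, and Pax2 with Lhx1 and Lhx5 sets and maintains the inhibitory kind. Maf, Prdm8, Satb1 and Ebf1 are found in subsets of spinal neurons. Many of these factors fade as neurons mature, while others stay on in the adult. Several also work elsewhere: Maf in macrophages and lens, Satb1 in T cells, Ebf1 in B cells and connective tissue, and Lhx1 and Lhx5 in ventral interneurons.

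The 60-base probes below are shown because the readings turn on them: 1 close to background, both probes of Lmx1b, those of Lbx1 and Lhx1 with the larger time ratios, and a Pax2 probe that was measured beside 1 that was not. They are printed in lower case, 5′ to 3′, as in the deposited array files. Capitals in the Tlx3 probe mark the bases for tryptophan, phenylalanine, glutamine, asparagine and arginine in the recognition helix of the homeodomain, the part of the protein that contacts DNA. Translation of the sense strand in 3 frames, searched for tryptophan, phenylalanine, any residue, asparagine and arginine in a row, found that stretch in 12 of 39429 probes on the array (0.0304%), and among the 16 probes only in that of Tlx3.
Tlx3: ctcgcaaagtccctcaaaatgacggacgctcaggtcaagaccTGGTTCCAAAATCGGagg
Lmx1b, A_55_P2146295: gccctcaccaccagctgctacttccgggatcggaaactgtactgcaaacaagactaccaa
Lmx1b, A_55_P2146297: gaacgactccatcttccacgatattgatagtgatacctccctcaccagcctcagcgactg
Lbx1, A_55_P2051741: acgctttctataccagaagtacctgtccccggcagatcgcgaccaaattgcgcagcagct
Lhx1, A_55_P2231244: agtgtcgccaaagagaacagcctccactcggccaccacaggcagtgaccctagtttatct
Pax2, A_55_P2075127, measured: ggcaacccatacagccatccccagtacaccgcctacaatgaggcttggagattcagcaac
Pax2, A_55_P2148518, not well above background: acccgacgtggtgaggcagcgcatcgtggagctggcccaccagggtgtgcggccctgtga

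In mm9, the build of the deposited probe annotation, the Tlx3 probe lies at chr11:33102440-33102499 on the minus strand. The Lmx1b probes lie at chr2:33495011-33495070 and chr2:33420253-33420312 on the minus strand, 74.7 kb apart. The Lbx1 probe shown lies at chr19:45308588-45308647 on the minus strand, and the second probe of that gene, at chr19:45307178-45307237, contains the hexamer AATAAA of polyadenylation signals. On the probe strand that hexamer was in 4965 of 39429 probes (12.6%) and in 1 of the 16 here. The Pax2 probes shown lie at chr19:44909895-44909954 and chr19:44835420-44835479 on the plus strand. Pax2 and Lbx1 thus lie on the same chromosome, with 397.2 kb between their nearest probes. Genes between them were not looked up. The Lhx1 probe shown has 60 bases but spans 153 bases, chr11:84335442-84335594, on the minus strand, so it bridges an intron and matches spliced RNA. Which other probes are exonic within coding sequence or untranslated sequence was not analysed here. The measured probes of Lbx1 are annotated to different transcripts, as are those of Lhx1 and those of Maf. Whether the probes of such a gene read the same RNA was not analysed either.

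Of the 10 factors, 9 were measured on every array by at least 1 probe, and in these 9 no probe measured on every array differed between arrays by as much as 1.5-fold. Levels are the authors' quantile-normalized intensities in arbitrary units, and a probe was taken as measured where the image software flagged it as well above background. The software flagged 65.1% to 70.1% of all 39429 probes per array and found no saturated probe. Precision is limited by the number of arrays. By this flag 13 of the 16 probes, for 9 genes, were measured on all 4 arrays. The probe of Tlx3 was measured on 1 array, and 2 of 3 probes of Pax2 on none. Among the 13 probes the highest array exceeded the lowest by 1.11 to 1.45 times (median 1.24), and 0 of 13 reached 1.5, against 16.2% of the 25012 probes measured on all arrays, whose median was 1.23. Levels are compared below within a probe, since probes bind their targets with unequal strength. For some marker lists the levels were also summed over the same probes on each array, and there the brightest probes weigh most.

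**Figure D1:**
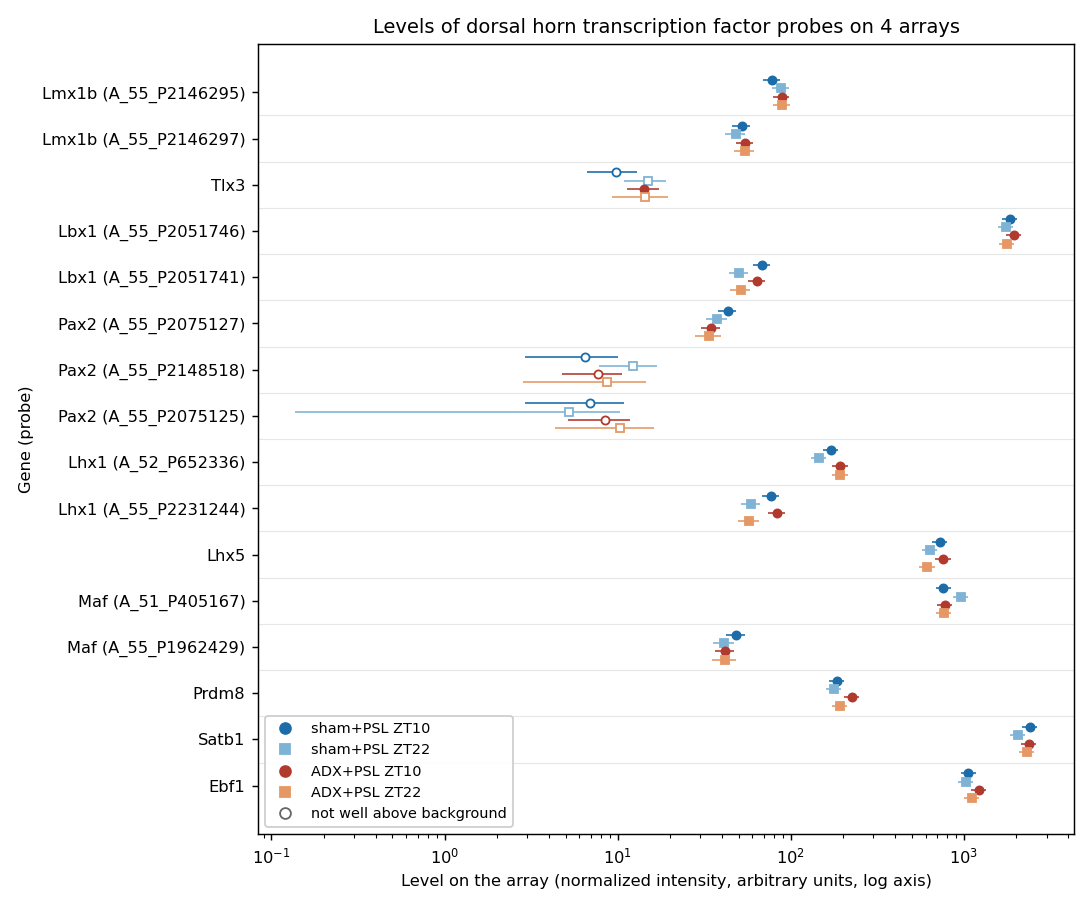
Level of each of the 16 probes on each array (horizontal log axis, normalized intensity in arbitrary units), with the software's spot error as a bar. Circles are ZT10 and squares ZT22, blue is sham+PSL and red or orange ADX+PSL, and open symbols mark readings not well above background. The 4 readings of a measured probe lie within 1.45-fold of each other, and the open symbols belong to Tlx3 and to 2 probes of Pax2.

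Each ratio below is given on the log2 scale with the error that the image software attaches to the spots of both arrays. That error was 0.20 to 0.32 over the 52 ratios of the 13 probes. For the brighter probes the software put it close to 10% of each level, a value of its error model that covers reading the spots and leaves out mice, slices and labelling. Of the 52 ratios, 14 exceeded 1 spot error and 1 exceeded 2. Ratios beyond the spot error were not counted over all probes, so passing it does not set a factor apart. In bulk RNA, fewer cells of a type and less RNA per cell cannot be told apart.

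Of the glutamatergic pair, Lmx1b, a LIM homeodomain protein, was measured on every array and varied little. Its first probe read 77.7 (ZT10) and 87.5 (ZT22) on the sham+PSL arrays and 88.3 (ZT10) and 89.0 (ZT22) on the ADX+PSL arrays. Only sham+PSL at ZT10 stood below the rest, by less than the spot error (log2 ratio of ZT10 to ZT22 -0.17 ± 0.22). The second probe read 51.9, 48.2, 54.3 and 54.0 in the same order, with a log2 time ratio in sham+PSL of 0.11 ± 0.26. The probes thus differed in the sign of that ratio, each within its error, and in ADX+PSL both had time ratios near 0 (-0.01 ± 0.22 and 0.01 ± 0.26).

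Tlx3, the homeodomain protein that works with Lmx1b, was close to the limit of the array. Its level was 9.75 (ZT10) and 14.9 (ZT22) on the sham+PSL arrays and 14.2 (ZT10) and 14.4 (ZT22) on the ADX+PSL arrays, and only the ADX+PSL ZT10 reading was well above background. Spot errors were 20.9% to 35.6% of the level. The ADX+PSL ZT10 reading lay below the lowest level flagged as well above background on the sham+PSL ZT10 array (14.9), so no fold is given for Tlx3 between any arrays.

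Lbx1, shared by both kinds of neuron, was measured by both of its probes, which lie 1.35 kb apart. The brighter read 1836 (ZT10) and 1745 (ZT22) on the sham+PSL arrays and 1945 (ZT10) and 1772 (ZT22) on the ADX+PSL arrays, the narrowest spread of the 13 probes (1.11 times). The dimmer read 68.2, 50.4, 63.8 and 51.4 in the same order. Both readings at ZT10 stood above both readings at ZT22 in either probe. The ratio of ZT10 to ZT22 on the log2 scale was 0.07 ± 0.20 for sham+PSL mice and 0.13 ± 0.20 for ADX+PSL mice by the brighter probe, against 0.44 ± 0.24 and 0.31 ± 0.25 by the dimmer one. Between operations neither probe moved by more than 0.10 at either time.

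Of the inhibitory group, Pax2, a paired-domain protein, was measured by 1 probe of 3. That probe read 43.0 (ZT10) and 37.6 (ZT22) on the sham+PSL arrays and 34.6 (ZT10) and 33.8 (ZT22) on the ADX+PSL arrays. It was lower in ADX+PSL at both times, by a log2 ratio of -0.32 ± 0.26 at ZT10 and -0.15 ± 0.32 at ZT22. Of the others, the probe printed above read 6.49 to 12.3 and the third probe 5.20 to 10.3, none of them well above background, with spot errors up to 97.4% of the level, so no fold is given for either.

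Lhx1, a LIM homeodomain protein that keeps neurons inhibitory together with Lhx5, was measured by both of its probes, which did not vary in the same way. The brighter probe (chr11:84331888-84331947, minus strand) read 169.6 (ZT10) and 144.9 (ZT22) on the sham+PSL arrays and 193.1 (ZT10) and 193.0 (ZT22) on the ADX+PSL arrays. Both ADX+PSL readings were thus above both sham+PSL readings, with log2 ratios of 0.19 ± 0.21 at ZT10 and 0.41 ± 0.21 at ZT22. The probe across the intron read 76.9, 59.0, 83.4 and 57.5 in the same order, high on both ZT10 arrays and low on both ZT22 arrays. Its time ratio, ZT10 over ZT22 on the log2 scale, was 0.38 ± 0.25 for sham+PSL mice and 0.54 ± 0.26 for ADX+PSL mice, and the latter was the largest of the 52 and the only 1 beyond 2 spot errors. For the brighter probe the time ratios were 0.23 ± 0.21 and 0.00 ± 0.21. For the intron-spanning probe the operation ratios were 0.12 ± 0.23 and -0.04 ± 0.28.

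Lhx5 had 1 probe (chr5:120891144-120891203, plus strand). It read 722 (ZT10) and 638 (ZT22) on the sham+PSL arrays and 760 (ZT10) and 614 (ZT22) on the ADX+PSL arrays. Readings at ZT10 were above those at ZT22 in both operations, with log2 ratios of 0.18 ± 0.20 and 0.31 ± 0.20. Adrenalectomy went with almost no difference at either time (0.07 ± 0.20 at ZT10 and -0.06 ± 0.20 at ZT22).

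Maf, a basic leucine zipper protein of deep dorsal horn neurons and of macrophages, stood out on 1 array. Its brighter probe (chr8:118227736-118227795, minus strand) read 760.5 (ZT10) and 958 (ZT22) on the sham+PSL arrays and 777 (ZT10) and 768 (ZT22) on the ADX+PSL arrays. The sham+PSL ZT22 reading exceeded the others, which were close together. The resulting log2 ratios were -0.33 ± 0.20 for ZT10 over ZT22 in sham+PSL, 0.02 ± 0.20 in ADX+PSL and -0.32 ± 0.20 for ADX+PSL over sham+PSL at ZT22. The dimmer probe, annotated to another transcript, lies 20.4 kb away (chr8:118207273-118207332, minus strand). It did not show this, with 48.4, 41.2, 41.5 and 41.7 in the same order and a sham+PSL time ratio of 0.23 ± 0.27. The brighter probe's time ratio in sham+PSL minus that in ADX+PSL was -0.35 with a spot error of 0.29. It was the only 1 of the 13 probes in which that difference exceeded its spot error. How many of all probes did so was not counted, and with 1 array per condition the difference could not be tested. The summed level of 10 microglia and macrophage markers, all well above background on every array, was also highest on the sham+PSL ZT22 array. It was 96960 there, of which Itgam alone gave 53140, and 76730 to 84210 on the others. The list's median log2 time ratio was -0.43 between the sham+PSL arrays and -0.37 between the ADX+PSL arrays, with 9 of 10 genes below 0 in each. Mrc1 went the other way in sham+PSL, with 176.8 at ZT10 and 112.8 at ZT22 (0.65). P2ry12 was highest in ADX+PSL at ZT22 (1469 against 1461 in sham+PSL at ZT22). The part of these markers in the reading of Maf was not tested.

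Prdm8, a PR-domain protein that represses transcription in subsets of neurons, read 183.5 (ZT10) and 177 (ZT22) on the sham+PSL arrays and 225 (ZT10) and 192 (ZT22) on the ADX+PSL arrays (chr5:98616387-98616446, plus strand). The ADX+PSL ZT10 reading was the highest, with a log2 ratio of 0.30 ± 0.21 over sham+PSL at ZT10 and of 0.23 ± 0.21 over ADX+PSL at ZT22.

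Satb1, which organizes chromatin loops in T cells and in neurons, read 2410 (ZT10) and 2050 (ZT22) on the sham+PSL arrays and 2367 (ZT10) and 2306 (ZT22) on the ADX+PSL arrays (chr17:51879137-51879196, minus strand). The low reading was that of sham+PSL at ZT22, and the log2 time ratio was 0.23 ± 0.20 with adrenals and 0.04 ± 0.20 without. Of 7 T cell markers on the array, Cd3d, Cd3g, Cd8a and Cd2 were well above background on no array, and Cd3e (672 to 750), Cd4 (1906 to 2076) and Lck (135 to 169) on all 4.

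Ebf1, a factor of early B cells that is also made by neurons and connective tissue, read 1061 (ZT10) and 1029 (ZT22) on the sham+PSL arrays and 1222 (ZT10) and 1116 (ZT22) on the ADX+PSL arrays (chr11:44818438-44818497, plus strand). It was higher in ADX+PSL at both times, by log2 ratios of 0.20 ± 0.20 and 0.12 ± 0.20. Meningeal fibroblast markers differed far more and the other way, with a summed level of 21990 and 18660 in sham+PSL against 6782 and 7301 in ADX+PSL and median log2 ratios of -1.62 and -1.75. At ZT10 12 of 14 of these markers were lower in ADX+PSL by 1.5-fold or more, and at ZT22 11 of 13. Their part in the reading of Ebf1 was not tested. Of 7 B cell markers on the array, Ms4a1 and Pax5 were well above background on no array, and Cd79a, Cd79b, Cd22 and Blnk on all 4.

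Across the factors, no probe passed either of the limits used. The first limit was a ratio of 1.5 or more either way on a probe well above background on the brighter array. For ZT10 against ZT22 in sham+PSL it was passed by none of the 13 probes tested, against 10.6% of all 27614 probes. In ADX+PSL it was passed by none of the 13, against 9.06% of 27509 probes. For ADX+PSL against sham+PSL it was passed by none of 14 at ZT10, where the Tlx3 probe was included by its reading in ADX+PSL, against 11.6% of 28300 probes, and by none of the 13 at ZT22, against 10.2% of 26830 probes. The sham+PSL ZT10 reading of Tlx3 was not well above background, so its place among the 14 says nothing about Tlx3. The second, stricter limit was a Z-score of 2 or more together with a ratio of 2 or more, either way. It was passed by 4.23%, 3.77%, 4.52% and 3.66% of all probes in the same order and by none of these. With 10 genes, a share of 0 lies near what the background gives and says little about the group.

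**Figure D2:**
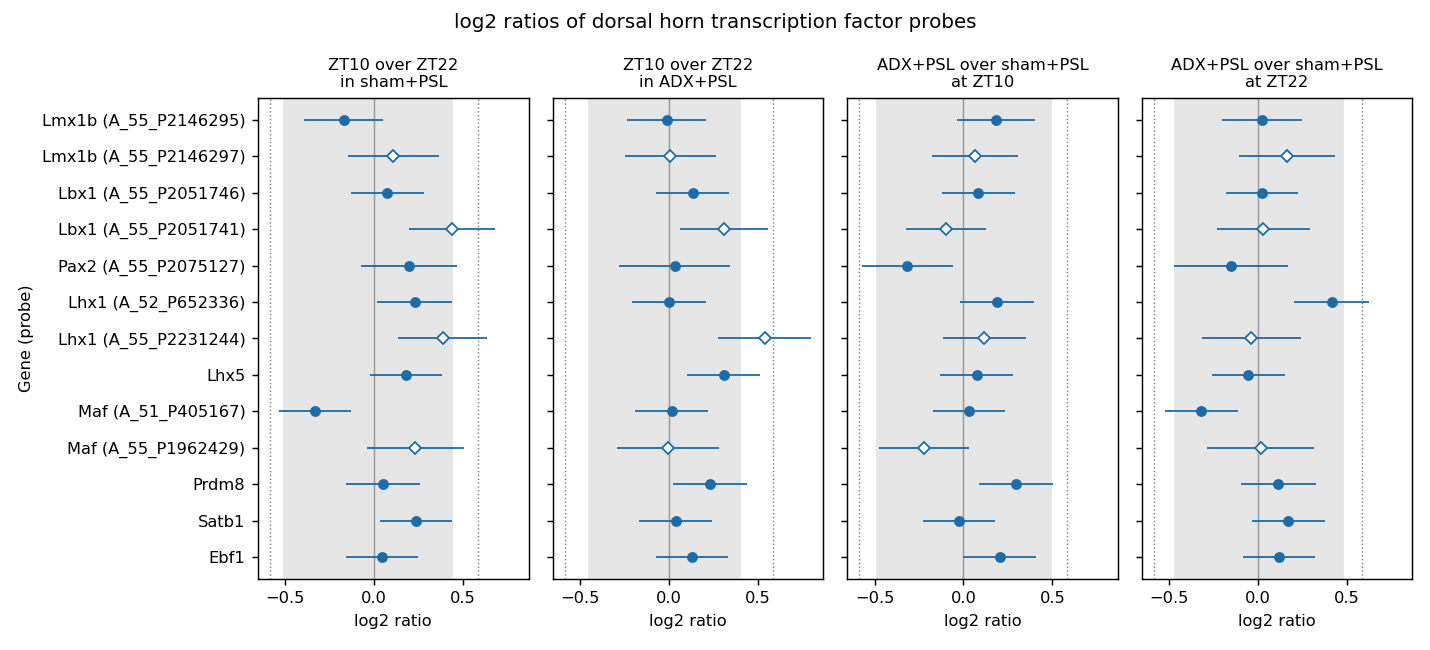
log2 ratios (horizontal axes) of the 13 probes measured on all arrays in the 4 comparisons. Bars are the software's spot error, filled circles the brightest probe of a gene, open diamonds its second probe, grey bands the 5th to 95th percentile of all probes measured on both arrays and dotted lines a ratio of 1.5. All points lie between the dotted lines, and the largest is the intron-spanning Lhx1 probe in ADX+PSL at 0.54.

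By the brightest probe of each gene, the median log2 ratio of the 9 measured factors was close to that of all probes in each comparison. For ZT10 over ZT22 it was 0.07 in sham+PSL, from -0.33 for Maf to 0.23 for Satb1, with 7 genes above 0, where the median of all probes was 0.01. In ADX+PSL it was 0.04, from -0.01 for Lmx1b to 0.31 for Lhx5, with 8 genes above 0 and an all-probe median of 0.0006. For ADX+PSL over sham+PSL it was 0.08 at ZT10, from -0.32 for Pax2 to 0.30 for Prdm8, with 7 genes above 0. The all-probe median there was -0.001. At ZT22 the factors' median was 0.02, from -0.32 for Maf to 0.41 for Lhx1, with 6 genes above 0 and an all-probe median of 0.01. Of all probes measured on both arrays, 51.5%, 50.1%, 49.7% and 51.9% were above 0 in the order of these comparisons. All of these gene values lay within the 5th to 95th percentile of all probes, which ran from -0.51 to 0.44, from -0.45 to 0.40, from -0.48 to 0.49 and from -0.47 to 0.48 in the order above.

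Over time most of the factors read slightly higher at ZT10. Of the 13 measured probes, 10 read higher at ZT10 than at ZT22 in both operations and 1 read lower in both, the first Lmx1b probe. Among all 25012 probes measured on all arrays 26.9% were higher in both and 24.4% lower in both. By gene, 7 of the 9 factors were higher in both. In ADX+PSL the log2 ratio was 0.00 for Lhx1, 0.03 for Pax2 and 0.04 for Satb1. With normexp background correction Pax2 and Lhx1 fell below 0 in ADX+PSL (-0.03 each) and Ebf1 in sham+PSL (-0.04). Without normalization Lhx1 (-0.10) and Satb1 (-0.09) fell below 0 in ADX+PSL. The count of probes depended on the processing: it was 11 of 13 under the 75th percentile shift, 8 of 13 without normalization (20.6% of all probes) and 6 of 13 with normexp background correction (28.2% of all probes). Of 11 general neuron markers, all measured on every array, 7 were also higher at ZT10 in both operations (3 with normexp), with median log2 ratios of 0.05 and 0.13 and a part in the factors' readings that was not tested. For the operation, 6 of the 13 probes were higher in ADX+PSL at both times and 1 was lower, the Pax2 probe, against 26.9% and 25.2% of all probes. The count of lower probes was 3 under the 75th percentile shift and 2 without normalization and with normexp.

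The 30 other dorsal spinal transcription factors that were looked up, of which 29 were on the array, are the nearest comparison. Of these, 25 were measured on every array and 4 on none. Among the latter were Tlx1, Prrxl1 and Ptf1a, named after their values were seen. Of the 25, 5 were higher at ZT10 in both operations and 11 lower in both (6 and 8 with normexp), with median log2 time ratios of -0.06 (sham+PSL) and -0.04 (ADX+PSL). Among those past 1.5-fold in sham+PSL were Skor2, a corepressor of inhibitory neurons, at 0.77, and the progenitor factors Prdm13 at -0.92 and Gsx1 at -0.95. Prdm13 and Gsx1 are dim, with levels of 26.8 to 56.8 and 19.6 to 52.5. In ADX+PSL no gene of this list passed the limit over time. Between operations, Gsx1 was higher in ADX+PSL at ZT10 (1.14) and Prdm13 lower at ZT22 (-0.96), and the list's medians were 0.02 and 0.08.

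Of 20 ventral and motor neuron factors, 16 were measured on every array, of which 9 were higher at ZT10 in both operations (6 without normalization) and 3 lower in both, with median log2 time ratios of 0.20 and 0.09. En1 and Sim1 were well above background on no array, and were named after their values were seen. Among genes measured on both arrays compared, the gene past 1.5-fold was Foxp2, which marks subsets of ventral interneurons, at -0.61 for time in ADX+PSL and 0.60 for ADX+PSL over sham+PSL at ZT22. Foxp2 is dim, with levels of 23.4 to 35.7, and both ratios rest on its ADX+PSL ZT22 reading of 35.7. Shox2, a factor of excitatory ventral interneurons that was well above background on both ZT10 arrays and neither ZT22 array, read 16.6 and 8.68 in sham+PSL and 13.1 and 8.23 in ADX+PSL, so its time ratio has only a bound and is not given. It was named after its values were seen. The transmitter and peptide genes of dorsal horn neurons, 21 in all and each measured on every array, showed 10 genes higher at ZT10 in both operations and 1 lower, the neuropeptide gene Gal (-0.83 and -0.69). Their median log2 time ratios were 0.08 and 0.16, and Pdyn, the precursor of dynorphin, passed 1.5-fold in ADX+PSL at 0.63. Whether the lists differ in direction was not tested.

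**Figure D3:**
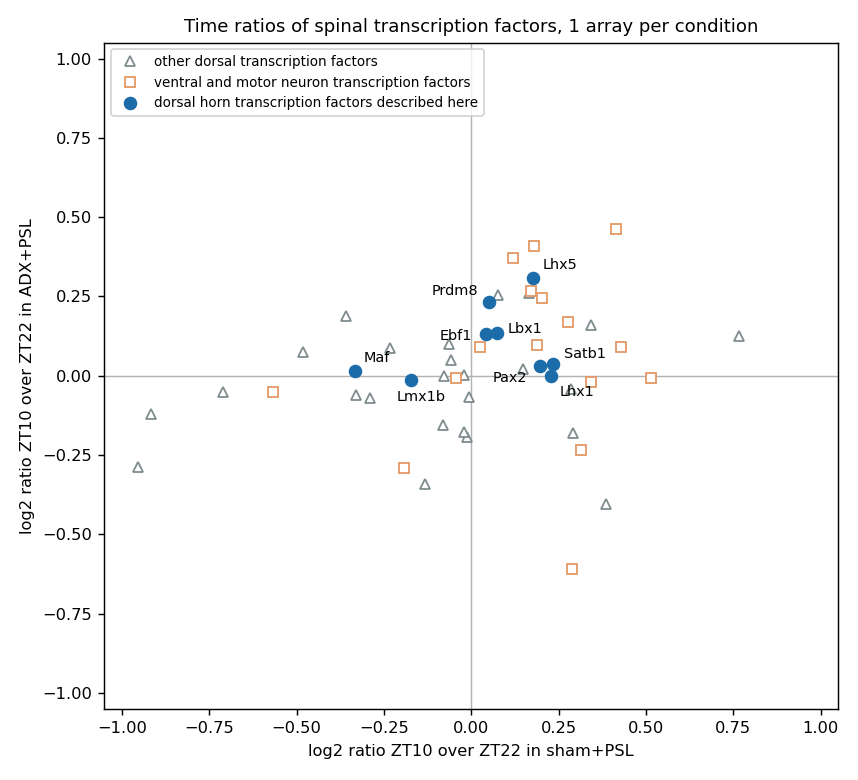
log2 ratio of ZT10 over ZT22 in sham+PSL (horizontal axis) against the same ratio in ADX+PSL (vertical axis) for genes measured on all arrays, by the brightest probe. Filled circles are the 9 dorsal horn factors described here, triangles the 25 other dorsal factors and squares the 16 ventral and motor neuron factors. Of the filled circles 7 lie above 0 on both axes, among them Lhx1 at 0.00 for ADX+PSL, with Maf and Lmx1b on the left. Prdm13 and Gsx1 are the triangles farthest to the left.

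**Figure D4:**
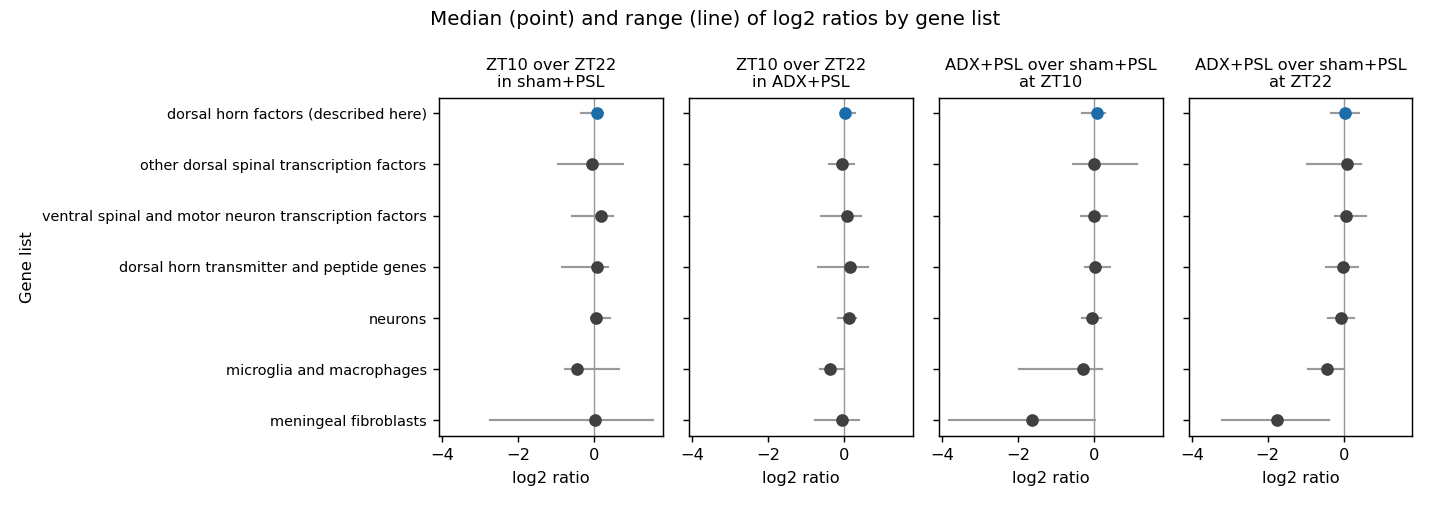
Median (point) and range (line) of log2 ratios over the genes of each list (vertical axis) in the 4 comparisons. The dorsal horn factors, in blue, have medians of 0.02 to 0.08, and the meningeal fibroblast markers have medians of -1.62 and -1.75 for ADX+PSL over sham+PSL.

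The additive fit in limma, with operation and time as terms over all 4 arrays, was the only test that the design allowed, since the difference between the time effects had to serve as its error. After Benjamini-Hochberg adjustment over 28845 probes it called 0 for operation (0.0%) and 0 for time (0.0%), and at an unadjusted p under 0.05 it called 1803 (6.25%) and 1420 (4.92%). Of the 14 probes tested for these factors it called none, with lowest adjusted p-values of 0.827 for operation and 0.932 for time. At the unadjusted threshold 0 passed for operation and 1 for time, the intron-spanning Lhx1 probe, with a log2 effect of ZT10 over ZT22 of 0.46 (SE 0.12, 95% interval 0.06 to 0.87, limma unadjusted p = 0.0365, adjusted p = 0.932) and readings higher at ZT10 in both operations. Its partner probe had an effect of 0.11 (95% interval -0.32 to 0.55). The largest operation effect was that of the brighter Lhx1 probe, 0.30 (95% interval -0.14 to 0.74), an interval that holds 0 and folds of up to 1.67. Standard errors over the 14 probes were 0.12 to 0.21, the highest being that of Tlx3, which was well above background on 1 array only. Effects of the size seen were therefore not detectable with 4 arrays, and these values do not show that the factors were equal between conditions.

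Beside these values stand facts of the arrays that touch them. Red blood cell genes were low in sham+PSL at ZT22, with a median log2 ratio of 3.05 for ZT10 over ZT22. On that array 8 of the 13 measured probes had their lowest reading and 1, the brighter Maf probe, its highest. The ADX+PSL ZT10 array held 7 of the 13 highest readings and 0 of the lowest. Such counts were not made over all probes, so whether these are unusual for an array is not known. Motor neuron markers read lower in ADX+PSL at both times in 6 of 6 genes, with median log2 ratios of -0.16 and -0.32. Among markers of dorsal root ganglion neurons, where Tlx3 is also made, 4 of 8 were well above background on no array, among them Scn10a, Mrgprd and Avil. Of the other 4, P2rx3 (169 to 192) and Nefh were well above background on 4 arrays, Scn9a on 3 and Trpv1 on 1. The part of red blood cell and motor neuron RNA in the factors' readings was not tested.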

How the data were processed

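Total RNA of lumbar slices was labelled with Cy3 and hybridized to 4 one-colour Agilent arrays, 1 per condition, all on 1 slide. The authors deposited spot intensities of Feature Extraction (version 9.5.1.1 per the labels, 10.7.1.1 per the file headers) with a well-above-background flag, and a table of linear intensities, quantile-normalized over the arrays, with 1 value per probe. Levels and ratios here come from that table, and spot errors from the deposited signal errors. Flags of a probe were taken from the spot files. All probes of the 10 symbols were named. Of the other lists, 179 of 185 genes were on the array by name, and a gene was represented by its brightest probe. Other genes were named where they passed a ratio of 1.5 in a comparison set beside the factors, at most 4 per list by brightness, apart from some that are not reported here. The members and lists were chosen with earlier results of these data known. The Z-score is not defined in the study's text and was taken as the deviation of a log2 ratio from its mean in SDs over all probes.

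The additive model was fitted with limma 3.58.1 (R 4.3.3) to 28845 probes, those flagged on 1 array or more, with 1 residual degree of freedom and Benjamini-Hochberg adjustment. Other steps used Python 3.11.15 with pandas 2.3.3 and numpy 2.4.6. The fit was tested on simulated data, in which its estimates were unbiased and it called none of the changed probes. Alternatives were other normalizations, normexp background correction (offset 50), other filters and limits, the mean over a gene's probes, a variance trend with intensity, each factor fitted alone, and leaving out single arrays. Nothing says that a condition's RNA came from several mice, and no p-value measures the spread between mice. Coordinates are those of mm9 in the deposited annotation.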

Additional observations from a re-analysis of the deposited data

How the results depend on the processing

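Under the alternatives the 216 log2 ratios of the 9 genes kept their sign in 199 cases, and 213 moved by less than 1 spot error. The 17 that changed sign had sizes of at most 0.08 before the change, in the main setting. The 3 that moved by more than a spot error arose from averaging a gene's probes. Maf over time in sham+PSL went from -0.33 to -0.05. Lhx1 went from 0.00 to 0.27 over time in ADX+PSL and from 0.41 to 0.19 between operations at ZT22. The count of probes past 1.5-fold rose from 0 to 2 for time in sham+PSL (Tlx3 and a Pax2 probe) and to 1 for the operation at ZT22 (a Pax2 probe) without a filter on background, and to 1 for time in ADX+PSL (the intron-spanning Lhx1 probe) and 1 for the operation at ZT10 (Tlx3) under the 75th percentile shift. Without normalization it was 1 for the operation at ZT10 (Tlx3), and the median of all probes shifted by -0.11 for time in ADX+PSL and by 0.12 for the operation at ZT22. With normexp, in a check chosen after seeing the data, 6 of the 13 probes were higher at ZT10 in both operations in place of 10, and under the other scalings 8 to 11, while 5 to 7 were higher in ADX+PSL at both times and 1 to 3 lower. The medians over the factors moved by less than a spot error in every setting.

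In the additive fit over all probes, calls for operation rose from 0 to 39 with an intensity trend, 13 among probes measured on all arrays, 10 with normexp and 6 without the other factor, and calls for time to 14, 11 and 9 with the first 3 of these. None of these calls was a probe of the 10 factors. With an array left out the additive model has no residual degree of freedom, so each factor was fitted alone with 1 array in an arm, and the 0 calls for operation and for time there say nothing about stability. No paired analysis was possible because each condition has 1 array and the labels carry no replicate numbers. Signal over background limits Tlx3 and 2 probes of Pax2, so their ratios past 1.5-fold under the alternatives are not measured folds.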
